A study of Mus musculus with 2 samples.

Results

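Ccl11 and Ccl24, the genes of the eosinophil-attracting chemokines eotaxin-1 and eotaxin-2, and Ccr3, the gene of their receptor, were followed through single cells of allergic mouse ear skin. The members were the rows of the read-count matrix with these symbols, 3 of 35208 gene rows, and all 3 had reads. The cells came from an IgE-dependent skin inflammation (IgE-CAI), in which BALB/c mice received 300 µg of anti-TNP IgE intravenously and, on the next day, 10 µg of TNP-OVA in the skin of the right ear. Wild-type (WT) BALB/c mice and Ccr2-/- BALB/c mice, which lack in every cell the chemokine receptor that monocytes use to enter inflamed tissue, were sampled on day 3 and day 5. The mice were male and 7 to 12 weeks old, and all groups had received the same IgE and antigen. The 4 groups were marked with hashtag antibodies, pooled and sequenced as 1 single-cell library, so each genotype and day was 1 pool with no replicate, and the number of mice behind each pool was not given in the sources used here.

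Eotaxins are CC chemokines, small secreted proteins with adjacent cysteines near the amino terminus, and they act on CCR3, a G protein-coupled receptor carried by eosinophils, basophils and some mast and T cells. Ccl11 is known as a product of fibroblasts, epithelium and endothelium, and Ccl24 as a product of macrophages, and IL-4 and IL-13 induce both genes through STAT6. In the skin of IgE-driven allergic inflammation, basophils are a known source of IL-4.

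The coding segments that give both chemokines their class and the receptor its signature are printed here, read from the GRCm38 genome with the GENCODE M21 annotation. Capitals mark the codons of the adjacent cysteines in the chemokines and, in the receptor, the codons of the Asp-Arg-Tyr (DRY) motif at the inner end of the third transmembrane helix.
Ccl11, chr11:82061679-82061728, plus strand, exon 2 of 3: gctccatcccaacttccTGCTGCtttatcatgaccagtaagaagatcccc
Ccl24, chr5:135572638-135572693, minus strand, exon 2 of 3: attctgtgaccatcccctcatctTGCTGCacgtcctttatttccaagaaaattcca
Ccr3, chr9:124029005-124029064, plus strand, exon 2 of 2: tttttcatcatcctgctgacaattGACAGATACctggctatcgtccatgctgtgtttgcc
The cysteine pair began at codon 32 in Ccl11 and at codon 33 in Ccl24, and the DRY motif at codon 134 in Ccr3. The bases annotated as coding numbered 291 in Ccl11, 357 in Ccl24 and 1077 in Ccr3. Ccl11 (chr11:82057823-82062955) lies in a run of chemokine genes with Ccl2 and Ccl7 on one side and Ccl12 and Ccl8 on the other. Ccl24 (chr5:135569937-135573049) neighbours Ccl26, the third eotaxin gene. Ccr3 (chr9:124021972-124031689) lies 70.3 kb from Ccr2, the gene disrupted in the knockout. No stretch of 50 bases of a Ccl11, Ccl24 or Ccr3 transcript occurred in a transcript of another gene, so reads of that length could not be shared with a near copy.

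The matrix held 8953 barcodes and 548117598 reads, between 3113 and 713596 per barcode, and 7118 cells with a single hashtag and at most 20% mitochondrial reads were kept. WT day 3 had 1543 cells, WT day 5 had 1037, Ccr2-/- day 3 had 2191 and Ccr2-/- day 5 had 2347. Median reads per cell ran from 18632 in Ccr2-/- day 5 to 48232 in WT day 5. Ccr2 stood at 358 and 350 counts per 1000000 reads (CPM) in the WT pools and at 13.5 and 11.8 CPM in the Ccr2-/- pools, in the order of their labels. The values are reads and not molecules, so the intervals given below cover counting error only. Cells were named from marker genes by cluster, and 2 of 22 clusters stayed unnamed. Of the markers that gave the names, Pdgfra was read in 95.7% of fibroblast-like cells and in 23.3% of the rest, and Csf1r in 93.0% of monocyte- and macrophage-like (Mo-Mac-like) cells and in 22.6% of the rest. Whole-pool Ccr2 also follows the share of Mo-Mac-like cells, which was lower in the Ccr2-/- pools. Within these cells Ccr2 stood at 939 CPM in WT day 3, 677 in WT day 5, 86.5 in Ccr2-/- day 3 and 28.1 in Ccr2-/- day 5. The source of the remaining Ccr2 reads was not tested. Col1a1, a fibroblast collagen, had a read in 89.7% of the cells that were not fibroblast-like. The parts of free RNA, of doublets and of the cells' own expression in these reads were not tested.

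The 3 genes were read in different cells. Kept cells held 482126 reads of Ccl11 in 3555 cells, 44693 reads of Ccl24 in 1222 cells and 936 reads of Ccr3 in 166 cells. Fibroblast-like cells held 95.6% of the Ccl11 reads, Mo-Mac-like cells 84.5% of the Ccl24 reads and eosinophil-like cells 57.2% of the Ccr3 reads. CPM does not correct for gene length or for how well a gene was captured, so each gene's levels are compared between cells and not with those of another gene. The members were left out of the genes used for clustering and naming, and their levels by cell type are descriptions without a test. Below, 4 values in a row are those of the pools in this order: WT on day 3 and on day 5, then Ccr2-/- on day 3 and on day 5.

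**Figure D1:**
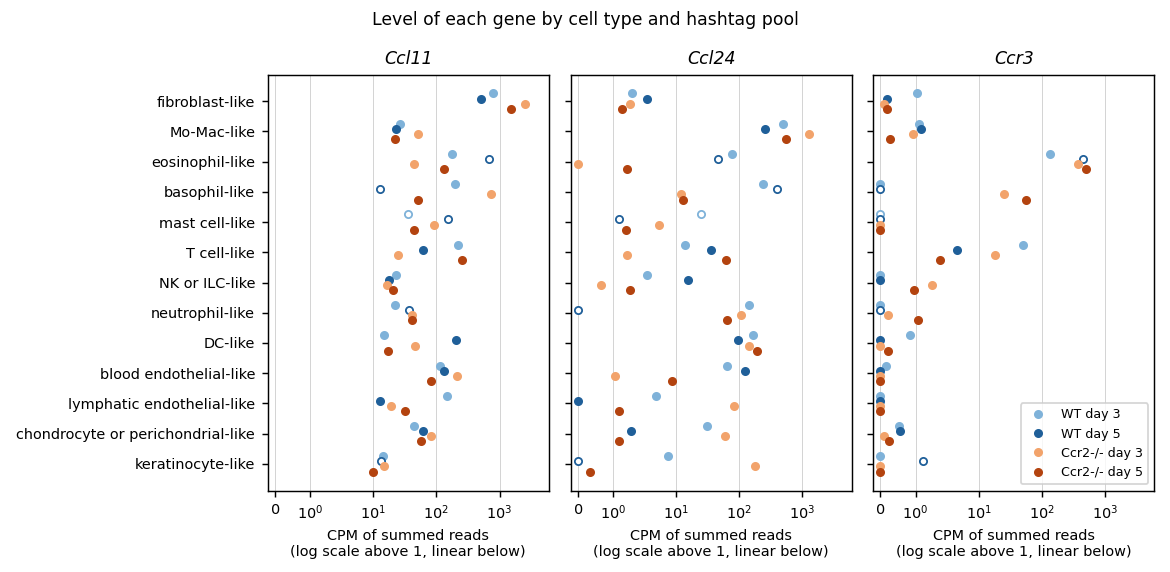
Level of Ccl11, Ccl24 and Ccr3 (CPM of summed reads, log scale above 1 and linear below) by cell type, 1 dot per pool and hollow dots for under 20 cells. Ccl11 lay between 504 and 2555 CPM in fibroblast-like cells, Ccl24 between 254 and 1278 CPM in Mo-Mac-like cells and Ccr3 between 135 and 505 CPM in eosinophil-like cells, each above the other named types except in WT day 5, where 19 eosinophil-like cells stood at 693 CPM of Ccl11 and 2 basophil-like cells at 402 CPM of Ccl24.

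Over all pools Ccl11 stood at 1757 CPM in 1795 fibroblast-like cells, and 86.7% of them had a read. When each cell was thinned to 5000 reads, 59.0% of fibroblast-like cells kept one. Basophil-like cells came next at 376 CPM, but 84.0% of those reads lay in 1 cell, and the level without it was 63.8 CPM. Then followed T cell-like cells at 152 CPM, eosinophil-like cells at 151 CPM and blood endothelial-like cells at 127 CPM. These neighbours overlapped between pools: T cell-like cells ranged from 24.6 to 259.6 CPM, eosinophil-like cells from 44.8 to 693 CPM and blood endothelial-like cells from 82.6 to 212 CPM. Mo-Mac-like cells lay at 28.4 CPM, NK or ILC-like cells at 19.2 CPM and keratinocyte-like cells, from the epithelium, at 13.2 CPM. In each pool the fibroblast-like level was above that of every other named type but one: in WT day 5 the 19 eosinophil-like cells stood at 693 CPM, from 60 reads of which 68.3% lay in 1 cell, beside 504 CPM in fibroblast-like cells.

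Within the fibroblast-like cells Ccl11 was read at 799 CPM in WT day 3 and 504 CPM in WT day 5, and at 2555 CPM in Ccr2-/- day 3 and 1509 CPM in Ccr2-/- day 5. The 95% Poisson intervals were 789 to 808, 495 to 513, 2545 to 2564 and 1501 to 1517 CPM, from 255 to 680 cells per pool. Both Ccr2-/- pools were above both WT pools, and within each genotype the day-3 pool was the higher. The Ccr2-/- level was 3.20 times the WT level on day 3 and 3.00 times on day 5. The ratios were 3.41 and 3.27 without the top cell of each pool, and 4.10 and 2.83 as means of single-cell CPM. Of fibroblast-like cells thinned to 5000 reads, 45.4% and 45.7% of the WT day 3 and day 5 cells had a Ccl11 read, against 72.0% and 57.0% of the Ccr2-/- cells.

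The gene was unevenly spread over these cells. The median cell stood at 59.1 CPM in WT day 3, 90.1 in WT day 5, 931 in Ccr2-/- day 3 and 283 in Ccr2-/- day 5. Cells above 1000 CPM were 15.0%, 7.84%, 48.5% and 30.0% of the 4 pools in that order. The highest 12 cells of WT day 3 and 9 cells of WT day 5 held most of the Ccl11 reads of their pools, and it took 83 and 37 cells in the Ccr2-/- pools. More cells were high in the Ccr2-/- pools, and no single cell carried the difference.

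The fibroblast-like cells formed 3 clusters. Cluster 1, led by Saa3 and Cxcl5, genes of an inflammatory response, with Ccl11 itself among its leading genes, held 90.3% of the Ccl11 reads of all kept cells, at 1164, 739, 3063 and 1706 CPM. Cluster 11, led by Scara5 and Dpt, which mark fibroblasts of the deep dermis and fascia, stood at 318, 309, 499 and 410 CPM. Cluster 20, led by Coch and Apcdd1, known from the papillary dermis, stood at 49.0, 514, 777 and 149 CPM in 33, 14, 30 and 36 cells, and a single cell held 52.3% to 77.7% of its reads in each pool. In clusters 1 and 11 both Ccr2-/- pools lay above both WT pools, while in cluster 20 the order differed between days. The clusters made up different shares of the pools: cluster 1 held 101 and 53 of the WT cells and 422 and 366 of the Ccr2-/- cells, and cluster 11 held 180 and 188 of the WT cells and 228 and 144 of the Ccr2-/- cells. Most WT fibroblast-like cells were thus in cluster 11 and most Ccr2-/- cells in cluster 1.

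Depth moved with the level. Fibroblast-like cells had a median of 82388.5 and 80140 reads in the WT pools and 144961 and 142542.5 in the Ccr2-/- pools. In cells of at most 100000 reads Ccl11 stood at 336, 323, 988 and 485 CPM, and in larger cells at 1015, 596, 2787 and 1652 CPM. The Ccr2-/- pools were above the WT pools in both sets, by less on day 5 among the smaller cells. In cluster 1 the smaller cells, 17, 7, 52 and 56 in number, stood at 779, 400.1, 2690 and 822 CPM, and the larger ones at 1192, 752, 3081 and 1754 CPM. The part of cell size in the genotype difference was not tested.

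**Figure D2:**
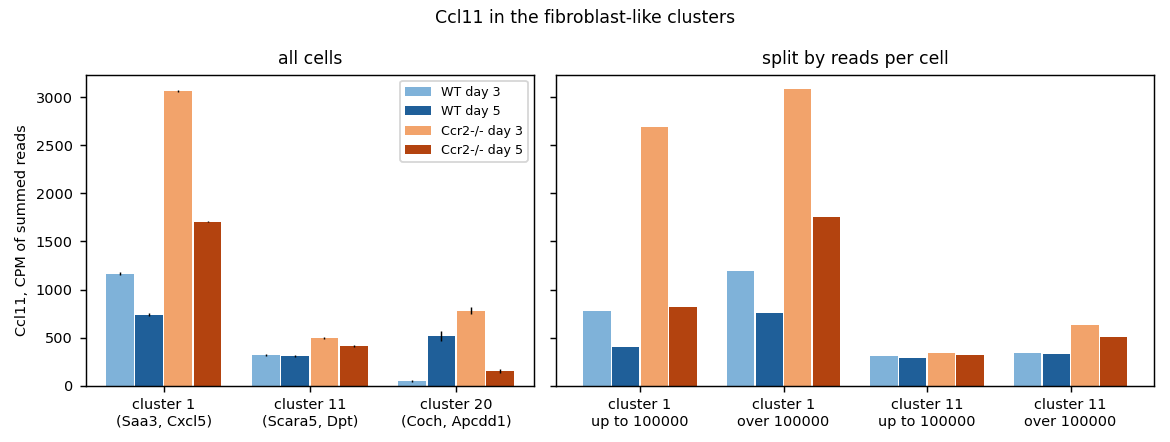
Ccl11 in fibroblast-like cells (CPM of summed reads) by cluster and pool on the left, with 95% Poisson intervals, and on the right for clusters 1 and 11 split at 100000 reads per cell, without intervals. Cluster 1 stands highest in every pool and reaches 3063 CPM in Ccr2-/- day 3, and cluster 11 stays between 309 and 499 CPM.

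Ccl11 was also compared by reads of other genes, first of receptors for the cytokines known to induce it. Cells were split by whether they kept a read of the receptor after thinning to 5000 reads, and Ccl11 was then counted from all their reads. Fibroblast-like cells with a read of Il13ra2, a high-affinity IL-13 receptor that STAT6 induces, stood at 1442 CPM of Ccl11 in WT day 3, 1530 in WT day 5, 3504 in Ccr2-/- day 3 and 2370 in Ccr2-/- day 5, and cells without one at 578, 376, 1672 and 598 CPM. Cells with a read of Il4ra, the shared receptor chain of IL-4 and IL-13, stood at 1232, 617, 3155 and 1929 CPM, and those without at 545, 456, 1733 and 759 CPM. Ccl11 was higher in the cells with a receptor read in all pools. The same order held for Il1r1, an IL-1 receptor, with 1032, 614, 2929 and 1756 CPM against 468, 419.96, 1549 and 932 CPM. It was not particular to receptors: with and without a read of Saa3 the cells stood at 1020, 765, 2673 and 1614 against 624, 369, 2459 and 1368 CPM. Il13ra2 and Saa3 were leading genes of cluster 1, so their splits are not independent of the clusters.

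The order turned for Dpp4, which stands in the marker list for resting fibroblasts. No fibroblast-like cluster met the naming rule for a resting or an inflammatory state. Cells with a read of Dpp4, a protease that trims eotaxin and marks a deep dermal fibroblast state, stood at 459, 315, 909 and 722 CPM of Ccl11, and cells without one at 841, 526, 2635 and 1600.3 CPM. For Scara5 the cells with a read were the lower in 3 pools, and in WT day 5 they were the higher, at 621 against 451 CPM.

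With genotype and day as terms and the 4 pools as samples, edgeR's quasi-likelihood test, with 1 residual degree of freedom, gave a log2 difference (Ccr2-/- minus WT) of 1.65 with a standard error of 0.08 (0.0769) for Ccl11 in fibroblast-like cells, and a Benjamini-Hochberg adjusted p of 0.118 over all genes (unadjusted p 1.33e-05). The test called 0 of 19901 genes (0%) in these cells, with 3933 at an unadjusted p under 0.05, while DESeq2 called 1559, Ccl11 among them with an adjusted p of 1.34e-25. The edgeR call was made with no filter on low counts (log2 1.67, adjusted p 0.00466) and without the top cell of each pool (log2 1.74, adjusted p 0.0429). The difference was 1.01 (adjusted p 0.252) in cells of at most 100000 reads, 1.33 (0.228) in cluster 1 and 0.48 (0.328) in cluster 11. By size alone, Ccl11 was among the 122 of 9040 genes (1.35%) more than 2-fold apart in the same direction on both days, with log2 differences of 1.68 and 1.58. Between days 10 genes (0.111%) passed that rule in both genotypes, and Ccl11 did not, with day 5 minus day 3 at -0.66 in WT and -0.76 in Ccr2-/- cells.

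Marker genes of Mo-Mac cells summed to between 119.6 and 199 CPM in the fibroblast-like groups, with 6 of 6 detected in each pool. An unnamed cluster of 458 cells (cluster 0) also carried Ccl11, at 443, 1678, 1326 and 771 CPM. In WT day 5 a single cell held 78.0% of that cluster's Ccl11 reads, and the level without it was 526 CPM. These cells are not part of the fibroblast-like values.

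Ccl24 followed a different set of cells. Over all pools it stood at 528 CPM in 1156 Mo-Mac-like cells and, after thinning to 5000 reads, 45.8% of them had a read. Dendritic cell (DC)-like cells came next at 148 CPM with 5.56% of the reads, and 12.3% of them had a read after thinning. Neutrophil-like cells stood at 82.1 CPM, basophil-like cells at 62.4 CPM, and blood endothelial-like and keratinocyte-like cells both at 39.8 CPM, the last with 90.9% of its reads in 1 cell. Fibroblast-like cells, the main holders of Ccl11, stood at 1.88 CPM, with a read in 0.837% of thinned cells, and no Schwann cell-like cell had a Ccl24 read. By pool DC-like cells stood at 163, 97.6, 145 and 189 CPM and neutrophil-like cells at 143, 0, 108 and 65.4 CPM, so these neighbours overlapped, and Mo-Mac-like cells lay above both in each of the 4 pools. Basophil-like cells stood at 242, 402, 12.2 and 12.96 CPM from 27, 2, 66 and 62 cells, in WT day 5 above the Mo-Mac-like level.

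In Mo-Mac-like cells Ccl24 was read at 495 CPM in WT day 3, 254 CPM in WT day 5, 1278 CPM in Ccr2-/- day 3 and 545 CPM in Ccr2-/- day 5. The 95% Poisson intervals were 487 to 504, 248 to 260, 1256 to 1299 and 528 to 562 CPM, from 478, 455, 132 and 91 cells. The Ccr2-/- pool was the higher on each day, at 2.58 times the WT level on day 3 and 2.14 times on day 5, and day 3 was the higher in each genotype. The Ccr2-/- day 5 and WT day 3 pools lay close together, so the genotypes were separated within days. The share of cells with a read moved less than the level: after thinning to 5000 reads it was 50.1% and 38.0% in the WT pools and 61.9% and 39.8% in the Ccr2-/- pools.

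Over whole pools the order was the reverse. Mo-Mac-like cells made up 31.0% (day 3) and 43.9% (day 5) of WT cells but 6.02% and 3.88% of Ccr2-/- cells. Over all cells of a pool, Ccl24 stood at 169, 112, 99.99 and 38.1 CPM. The whole-pool level of Ccl24 was thus higher in WT on each day, and the level inside the Mo-Mac-like cells was higher in Ccr2-/-. Ccl11 over all cells was 336, 243, 1791 and 974 CPM, so for Ccl11 both orders were alike. Fewer cells of a type and less RNA per cell cannot be told apart in such whole-pool sums.

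A few cells carried much of the gene in the Ccr2-/- pools. The median Mo-Mac-like cell stood at 177 CPM in WT day 3, 54.9 in WT day 5, 338 in Ccr2-/- day 3 and 21.04 in Ccr2-/- day 5. Cells above 1000 CPM made up 16.1%, 7.25%, 37.9% and 20.9% of the Mo-Mac-like cells. The highest 44 and 36 cells held most of the reads in WT, and 13 and 7 cells did so in Ccr2-/-. On day 5 the Ccr2-/- median cell was thus below the WT one while its share of high cells was above.

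The clusters of Mo-Mac-like cells differed in level and in the order of the pools. Cluster 7, led by Arg1 and Chil3, genes that IL-4 induces in macrophages, stood at 541, 229, 2293 and 1079 CPM in 336, 342, 64 and 50 cells. Cluster 9, led by C1qa and Folr2, genes of macrophages resident in tissue, stood at 387, 340.1, 558 and 93.9 CPM in 71, 107, 63 and 37 cells. In cluster 7 both Ccr2-/- pools were above both WT pools, while in cluster 9 the Ccr2-/- pool was the higher on day 3 and the lower on day 5. Cluster 8, led by Ly6c2, a marker of classical monocytes, held 71 cells in WT day 3 and 4 to 6 cells in each other pool. Most Mo-Mac-like cells were in cluster 7 in both WT pools and in Ccr2-/- day 5, and in Ccr2-/- day 3 clusters 7 and 9 held nearly equal numbers.

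Reclustering the Mo-Mac-like cells gave the same picture at finer grain. The subcluster with the markers of Pdcd1lg2-expressing macrophages (PD-L2 is a ligand of PD-1 that IL-4 induces) held 42.5% of the Ccl24 reads of all kept cells. It stood at 638, 454, 2707 and 1541 CPM in 145, 21, 43 and 27 cells. The larger resident-like subcluster, led by Cd209b, stood at 310, 315, 964 and 187 CPM in 47, 80, 27 and 19 cells. Together with a resident-like subcluster led by Cyp26b1 and Aqp1, the resident-like cells stood at 295, 315, 504 and 90.8 CPM. They numbered 50, 80, 55 and 32. The classical monocyte-like subcluster stood at 440 and 20.3 CPM in WT, and at 3411 and 1062 CPM in the 10 and 6 Ccr2-/- cells, where 1 cell held 56.0% of the day-3 reads (1791 CPM without it) and all of the day-5 reads. In the Pdcd1lg2 macrophage-like subcluster both Ccr2-/- pools were the higher, and in the resident-like subcluster the order turned on day 5.

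Single genes, read after the same thinning, also split the level. Mo-Mac-like cells with a read of Arg1 stood at 657, 257, 2311 and 1043 CPM of Ccl24, and cells without one at 319, 249.9, 329 and 107 CPM. The Ccr2-/- pool was thus the higher on both days among the Arg1-reading cells, while cells without Arg1 stood near one another on day 3 and lower in Ccr2-/- on day 5. Cells with a read of Ly6c2 numbered 24 and 11 in the Ccr2-/- pools and stood at 3943 and 2356 CPM there, against 469 and 117 CPM in WT. Among Ccr2-/- cells those with a read of Lyve1, a marker of perivascular resident macrophages, were the lower at 513 and 76.2 CPM, against 1561 and 689 CPM without it. In WT the split by Lyve1 gave 465 against 497 CPM on day 3 and 542 against 242 CPM on day 5, where the cells with a read were the higher.

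**Figure D3:**
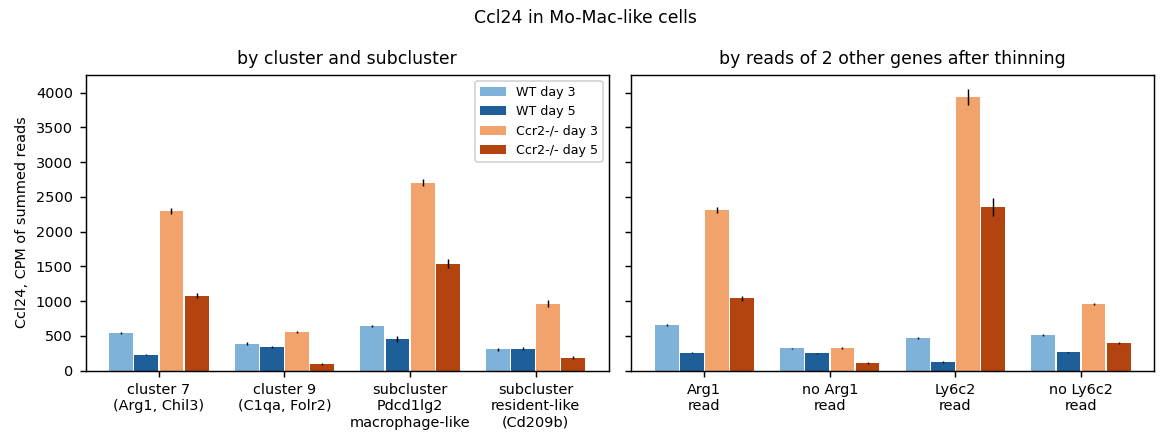
Ccl24 in Mo-Mac-like cells (CPM of summed reads) by cluster or subcluster and pool on the left, with 95% Poisson intervals, and on the right for cells with and without a read of Arg1 or Ly6c2 after thinning to 5000 reads. The Pdcd1lg2 macrophage-like cells reach 2707 CPM in Ccr2-/- day 3, and cluster 9 falls from 558 to 93.9 CPM between the Ccr2-/- pools.

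For Ccl24 in Mo-Mac-like cells edgeR's quasi-likelihood test gave a log2 difference (Ccr2-/- minus WT) of 1.29 with a standard error of 0.16 (0.163) and a Benjamini-Hochberg adjusted p of 0.0268, higher in the Ccr2-/- pool on 2 of 2 days. It was 1 of 147 genes called of 16466 (0.893%), 75 of them higher and 72 lower in Ccr2-/- cells. The call did not hold with a hashtag ratio of 10 (log2 1.23, adjusted p 0.0758), in cells of at most 100000 reads (2.11, 0.0879) or without the top cell of each pool (1.22, 0.0681). It was also lost when a pool was left out together with the day term, without WT day 5 (0.91, adjusted p 0.651), Ccr2-/- day 3 (0.58, 0.642) or Ccr2-/- day 5 (1.85, 0.371), and kept without WT day 3 (1.89, 0.00847). The difference was 2.24 (adjusted p 0.0386) in cluster 7 and -0.64 (0.645) in cluster 9. More than 2-fold apart in the same direction on both days were 326 of 8846 genes (3.69%), Ccl24 among them at 1.37 and 1.10, and between days 76 genes (0.859%), to which Ccl24 did not belong at -0.96 in WT and -1.23 in Ccr2-/- cells.

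The Mo-Mac-like cells of the pools also differed in reads of fibroblast markers and by cell depth. Fibroblast markers summed to 1614 and 2344 CPM in the WT Mo-Mac-like cells and to 1163 and 578 CPM in the Ccr2-/- ones, while fibroblast-like cells themselves held little Ccl24. In cells of at most 100000 reads Ccl24 stood at 503, 282, 2178 and 1108 CPM, and in larger cells at 477, 203, 656 and 51.8 CPM. The Ccr2-/- excess was larger in the smaller cells. In the larger cells the order turned on day 5, with 51.8 CPM in Ccr2-/- below 203 CPM in WT. After thinning to 5000 reads, 1, 1, 4 and 1 fibroblast-like cells of the 4 pools had reads of both eotaxins. Only 2, 2, 8 and 3 fibroblast-like cells had a Ccl24 read at all. Both were read in 31, 15, 7 and 3 of 473, 450, 126 and 88 Mo-Mac-like cells. Of those, 59, 40, 15 and 11 had a Ccl11 read and 237, 171, 78 and 35 a Ccl24 read. Whether the 2 genes met more or less often than their shares alone would give was not tested.

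Ccr3 was sparse. Its 936 reads gave eosinophil-like cells 384 CPM over all pools, and their median depth was 4390 reads, below that of every other named type. The eosinophil-like name rested on Alox15, read in 68.4% of these cells, F5 in 52.7%, Prg2 in 22.5%, Il5ra in 13.1% and Siglecf in 10.2%. Epx, the eosinophil peroxidase, was read in 0.727% and Clec4a4 in none, while 3.83% of the other cells had a Clec4a4 read. The cluster was named at a lower detection limit of 10%, set after the data were seen because its cells were shallow, and Ccr3 was among its leading genes together with Retnlg, Alox15 and F5.

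In eosinophil-like cells Ccr3 stood at 135 CPM in WT day 3 and 450.3 CPM in WT day 5, and at 378 CPM in Ccr2-/- day 3 and 505 CPM in Ccr2-/- day 5. These levels rested on 40, 39, 160 and 296 reads in 60, 19, 85 and 111 cells, of which 7, 10, 26 and 32 had a read. The 95% Poisson intervals were 96.2 to 183, 320.2 to 616, 321 to 441 and 449 to 566 CPM. The WT day 3 pool was below the other 3. The interval of WT day 5 overlapped those of both Ccr2-/- pools, and the Ccr2-/- pools did not overlap each other. The Ccr2-/- level was 2.80 times the WT level on day 3 and 1.12 times on day 5, and on day 5 it was 0.982 times as a mean of single-cell CPM.

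Thinned to 3000 reads, a depth chosen after the data were seen because it kept every cell, 10.0% of eosinophil-like cells had a Ccr3 read in WT day 3 (95% Clopper-Pearson interval 3.76% to 20.5%), 42.1% in WT day 5 (20.3% to 66.5%), 28.2% in Ccr2-/- day 3 (19.0% to 39.0%) and 27.03% in Ccr2-/- day 5 (19.0% to 36.3%). Over all pools it was 24.7% (19.7% to 30.3%). Among types not known to carry the receptor, fibroblast-like cells had a read in 0.0557%, Mo-Mac-like cells in 0.519% and neutrophil-like cells, at a median of 9499 reads, in 0.239%. The eosinophil-like share stood far above that background in each pool.

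Basophils, the other known CCR3 carriers, were next. After the same thinning 4.46% of basophil-like cells had a Ccr3 read (1.81% to 8.97%), above the fibroblast-like share. By pool they stood at 0, 0, 24.9 and 56.4 CPM from 27, 2, 66 and 62 cells, and the 39 and 74 reads of the Ccr2-/- pools lay in 5 cells each. Eosinophil markers summed to 191, 64.9, 392 and 415 CPM in these basophil-like cells, with 5, 6, 3 and 3 of 7 at 0, and their part in the Ccr3 reads was not tested. T cell-like cells stood at 49.3, 4.47, 17.9 and 2.43 CPM from 65, 2, 32 and 4 reads, with eosinophil markers between 1.12 and 6.70 CPM. A Ccr3 read was found in 0 of 113 mast cell-like cells, which allows up to 3.21% of cells with a read at this depth by the exact binomial limit and sets no limit on cells that express the gene at lower levels.

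**Figure D4:**
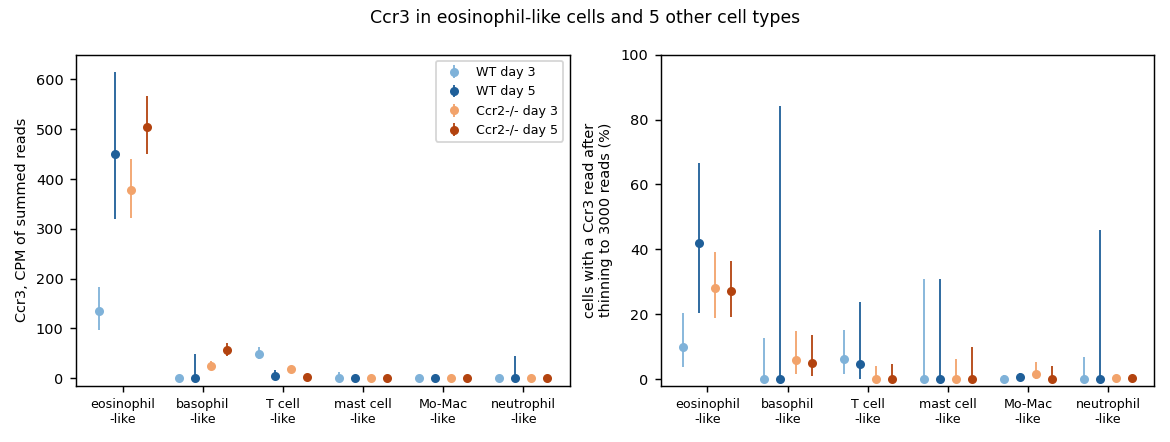
Ccr3 in 6 cell types by pool, as CPM of summed reads with 95% Poisson intervals and as percent of cells with a read after thinning to 3000 reads with 95% Clopper-Pearson intervals. Eosinophil-like cells range from 135 to 505 CPM and from 10.0% to 42.1%, above the other types in each pool.

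The genotype difference of Ccr3 in eosinophil-like cells was 0.88 on the log2 scale with a standard error of 0.58 (0.583), and did not pass edgeR's quasi-likelihood test (Benjamini-Hochberg adjusted p 0.998, unadjusted p 0.14). That test called 1 of 5478 genes (0.0183%) with 198 at an unadjusted p under 0.05, and DESeq2 called 0 with 232 at an unadjusted p under 0.05. By size, 1734 of 8575 genes (20.2%) were more than 2-fold apart in the same direction on both days between genotypes and 1440 (16.8%) between days. Ccr3 was in neither set, with genotype differences of 1.48 on day 3 and 0.17 on day 5 and day differences of 1.73 in WT and 0.42 in Ccr2-/- cells. In the eosinophil-like cells of the pools fibroblast markers summed to 3020 to 4884 CPM and Mo-Mac markers to 656 to 818 CPM, and the part of this RNA in the Ccr3 values was not tested.

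Eosinophil-like cells made up 3.89%, 1.83%, 3.88% and 4.73% of the cells of the pools. The mean was 4.30% in Ccr2-/- and 2.86% in WT, a difference of 1.44 percentage points (exact permutation test over the 4 pools, two-sided p 0.667, where 0.333 is the smallest p it can give). Among leukocytes alone they were 7.03%, 3.06%, 8.28% and 8.03%, a difference of 3.11 points (exact permutation p 0.333). On day 3 the shares of all cells were alike, and on day 5 the Ccr2-/- pool was the higher. When cells were typed one by one from their highest marker score and not by cluster, the cells typed as eosinophils made up 7.39%, 4.53%, 5.11% and 8.22% of the pools, so on day 3 the WT share was then the higher. Ccr3 stood at 4.64, 5.30, 48.6 and 101 CPM in those cells, so its level depends on how eosinophils are set apart.

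**Figure D5:**
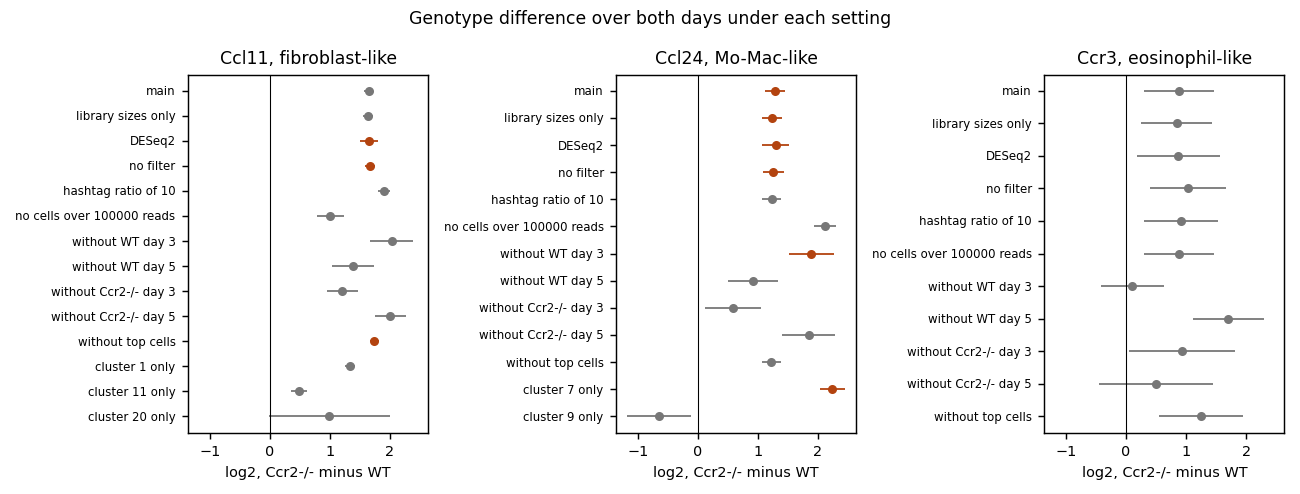
Log2 difference (Ccr2-/- minus WT) with its standard error for Ccl11 in fibroblast-like, Ccl24 in Mo-Mac-like and Ccr3 in eosinophil-like cells under each setting tried, with red for an adjusted p below 0.05. Ccl11 lies above 0 in all settings shown, Ccl24 in all but the fit on cluster 9 (-0.64), and Ccr3 has wide errors (0.10 to 1.70 when a pool is left out).

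The other ligands of CCR3 in the matrix had their highest levels elsewhere. Ccl7, a chemokine for monocytes that also binds CCR3, was highest in mast cell-like cells (5241 CPM over all pools) and stood at 3541 CPM in Mo-Mac-like cells. Ccl5, made by lymphocytes, was highest in NK or ILC-like cells at 2480.3 CPM, and Ccl28, an epithelial chemokine, in keratinocyte-like cells at 2.70 CPM. In Mo-Mac-like cells Ccl7 stood at 3435, 889.9, 8832 and 5856 CPM and was higher in Ccr2-/- cells, by 2.09 on the log2 scale (edgeR, Benjamini-Hochberg adjusted p 0.0358). Its call was lost at a hashtag ratio of 10 (edgeR adjusted p 0.107), in cells of at most 100000 reads (0.246), without the top cells (0.0809), in cluster 7 alone (0.0850) and without WT day 5, Ccr2-/- day 3 or Ccr2-/- day 5 (0.1197, 0.517 and 0.401), and it was kept in cluster 9 alone (log2 1.92, adjusted p 0.0322). In fibroblast-like cells Ccl7 stood at 2035, 1500.4, 3662 and 2558 CPM, with a log2 difference of 0.83 that did not pass (edgeR adjusted p 0.118). Of this list 2 of 3 genes, Ccl7 and Ccl5, were tested in Mo-Mac-like cells. The 1 called was Ccl7, beside 0.893% of all genes called. The median of these 2 genes was 1.75 against -0.04 over all genes, and Ccl5 (log2 1.42) was not called. In fibroblast-like cells 3 of 3 were tested and none was called, where the test called 0 of 19901 genes, with a median of 0.83 against 0.01.

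The genes of the known inducers of the eotaxins and of their receptor chains differed in where they were highest. Il4 was highest in basophil-like cells at 1748 CPM with 68.0% of its reads, and Il13 in the same cells at 335 CPM. By pool the basophil-like Il4 level was 1126, 1350.1, 885 and 3109 CPM, and that of Il13 was 107, 26.0, 264 and 551 CPM, the WT day 5 values from 2 cells. Il33, an alarmin, was highest in fibroblast-like cells at 389.6 CPM with 94.6% of its reads. Il13ra2 was a fibroblast gene too, with 92.5% of its reads there, and by pool its fibroblast-like level was 139, 75.4, 309.5 and 295 CPM. Both Ccr2-/- pools were above both WT pools for Il13ra2, with a log2 difference of 1.58 that did not pass the test (edgeR adjusted p 0.118). Il4ra stood at 186, 129, 284 and 336 CPM in the same cells (log2 1.01, edgeR adjusted p 0.131). In Mo-Mac-like cells Il4ra stood at 748, 236, 886 and 662 CPM (log2 0.92, edgeR adjusted p 0.1696). Of the 8 inducer and receptor genes, 8 were tested in fibroblast-like cells and 7 in Mo-Mac-like cells and none was called, with medians of -0.08 and 0.19.

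Genes that IL-4 and IL-13 induce beside the eotaxins did not share one direction in Mo-Mac-like cells. Retnla, a secreted protein of alternatively activated macrophages, stood at 3010.4, 2373, 1109 and 492 CPM and was lower in Ccr2-/- cells by 1.80 on the log2 scale (-1.80, edgeR, Benjamini-Hochberg adjusted p 0.0266). Its direction was thus opposite to that of Ccl24 in the same cells. The Retnla call was lost at a hashtag ratio of 10 (edgeR adjusted p 0.101), in cells of at most 100000 reads (0.143), without the top cells (0.0673), in clusters 7 and 9 alone (0.166 and 0.0525) and without WT day 5, Ccr2-/- day 3 or Ccr2-/- day 5 (0.0794, 0.427 and 0.371). Arg1 stood at 1566, 1289, 2201 and 1488 CPM, a log2 difference of 0.40 that did not pass (edgeR adjusted p 0.239). Of this list 10 of 11 genes were tested there, 1 lower and 0 higher, beside 0.893% of all genes called, with a median of 0.21 against -0.04 over all genes. In fibroblast-like cells 9 were tested and none was called, with a median of -0.42. In eosinophil-like cells Retnla was the called gene, at 37.0, 0, 474 and 591 CPM (log2 4.66, edgeR adjusted p 0.0319, DESeq2 adjusted p 0.0762), and the call was lost without either Ccr2-/- pool.

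Cytokines of eosinophil growth and survival and their receptors differed widely in level. Il5ra, the IL-5 receptor chain, was highest in eosinophil-like cells at 184 CPM and stood at 111, 208, 259.6 and 162 CPM by pool. Il5 had 12 reads in T cell-like cells (2.31 CPM), its highest level. Csf2, which encodes GM-CSF, was highest in basophil-like cells at 36.3 CPM, and Csf2rb, the chain shared by the IL-3, IL-5 and GM-CSF receptors, in mast cell-like cells at 1882 CPM. None of the 8, 7 and 5 genes of this list tested in fibroblast-like, Mo-Mac-like and eosinophil-like cells was called, with medians of 0.20, 0.15 and 0.51.

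Genes that remove or trim eotaxins were spread over vessels and stroma. Ackr1, an atypical receptor that takes up inflammatory chemokines, was highest in blood endothelial-like cells at 360.1 CPM, and Ackr2, a scavenger of CC chemokines, in lymphatic endothelial-like cells at 132 CPM. Dpp4 was highest in DC-like cells at 90.2 CPM. In fibroblast-like cells Dpp4 stood at 30.9, 47.4, 15.4 and 23.1 CPM (log2 -0.999) and Ackr2 at 18.8, 20.9, 8.0 and 7.2 CPM (log2 -1.37), both with an edgeR adjusted p of 0.118. Both genes lay lower in the Ccr2-/- pools, opposite to Ccl11, and neither passed the test. None of the 4, 2 and 1 genes of this list tested in fibroblast-like, Mo-Mac-like and eosinophil-like cells was called, with medians of -0.80, 0.79 and 2.70, the last from 1 gene.

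Eosinophil-like cells also carried other chemoattractant receptors. Cxcr4, the receptor of CXCL12, was highest in them at 418 CPM and stood at 639.5, 647, 288 and 365 CPM by pool, above the Ccr2-/- pools in both WT pools. Ccr1 stood at 168, 219, 441 and 449 CPM by pool, the reverse order, and was highest in neutrophil-like cells (1616 CPM over all pools). None of the 3 chemoattractant receptors tested in eosinophil-like cells was called, with a median of 1.27 against 0.26 over all genes. In Mo-Mac-like cells Cxcr4 stood at 129, 266, 28.8 and 93.1 CPM and was lower in Ccr2-/- cells (log2 -1.78, edgeR, Benjamini-Hochberg adjusted p 0.0266), the 1 call among 9 tested, whose median was -0.55, beside 0.893% of all genes called. The Cxcr4 call was lost at a hashtag ratio of 10 (edgeR adjusted p 0.0768), in cells of at most 100000 reads (0.225), without the top cells (0.0681), in clusters 7 and 9 alone (0.107 and 0.0650) and without WT day 5, Ccr2-/- day 3 or Ccr2-/- day 5 (0.683, 0.502 and 0.371). None of the 8 tested in fibroblast-like cells was called, with a median of 0.32. Of the listed receptor genes on chromosome 9, which also holds Ccr2 and Ccr3, none of those tested was called. These were 5, 5 and 3 in fibroblast-like, Mo-Mac-like and eosinophil-like cells, with medians of -0.51, -0.03 and -0.18. They included Ccrl2 (chr9:111054486-111057519), which does not lie beside Ccr2 and Ccr3.

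Genes whose levels ran most like each member were ranked over 46 combinations of cell type and pool, 13 types with at least 20 cells, among 10121 genes. For Ccl11 they were Rarres2, the gene of chemerin (Pearson r 0.87), Postn (0.83), Cxcl12 (0.82), Cpxm1 (0.81) and Tnfaip6 (0.80), largely secreted products of stromal cells. For Ccl24 they were Wfdc17 (0.82), Fcgr2b, an inhibitory Fc receptor (0.80), Gm49151 (0.80), Lyz2, lysozyme (0.79), and Ms4a6d (0.79). For Ccr3 they were Gm2350 (0.81), Sag (0.79), Sltm (0.78), Hnrnph1 (0.77) and Ear6, of the eosinophil-associated ribonucleases (0.77). The points share 1 library, 4 pools and the depth of each cell type, and for Ccr3 most points lie at or near 0.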

How the data were processed

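The deposited matrix held whole-number counts of reads per gene and cell barcode (BD Rhapsody, TAS-Seq), which the authors had made with cutadapt and Bowtie2 on GRCm38.p6 per the labels, and a second deposited matrix held the hashtag counts. The background correction that the study's methods describe was not visible in the deposited counts. A further 9 hashtag columns belonged to no pool and were not used. A barcode needed at least 10 reads over the hashtags of the 4 pools together. Each hashtag count, with a pseudocount, was divided by that hashtag's total. The barcode went to the pool whose scaled count was at least 3 times the next. Left out were 570 barcodes with several hashtags, 760 with few hashtag reads and all over 20% mitochondrial reads. Doublets within a pool were not removed.

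Cells with at least 200 genes were clustered in scanpy 1.11.5 (2000 variable genes, 30 principal components, 20 neighbours, Leiden resolution 1), and a cluster was named "-like" from marker lists where its score passed 0.5 and 3 markers were read in 25% of cells (10% for clusters with a median under 10000 reads). Reads were summed per pool and cell type. CPM is reads of a gene per 1000000 reads of those cells. The genotype test was edgeR 4.0.16 (quasi-likelihood, TMM, R 4.3.3) with day and genotype as terms, Benjamini-Hochberg adjusted over all genes, and DESeq2 1.42.0 was the alternative. The standard error was taken as the log2 difference divided by the square root of F. With 1 pool per group, additive day and genotype terms leave 1 residual degree of freedom per gene. The test moderates that spread with the spread shared over all genes, so the p-values rest on both. They do not measure variation between replicate pools. A pseudocount of 1 CPM was used for fold counts in genes of at least 10 CPM. Genes were named by rule: the members, the genes of fixed pathway lists, and the 5 genes most correlated with each member among those of at least 50 CPM. Ccr1l1 of these lists was not in the matrix. The members and lists were chosen with earlier results of these data known. Scripts were tested on simulated counts. In the simulated fibroblast-like comparison, unchanged genes made up a larger share of the calls than the nominal rate, so the adjusted p-values there are liberal. Protein sequences were not used here.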

Additional observations from a re-analysis of the deposited data

Results flagged for a closer look

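In cluster 20, the Coch- and Apcdd1-led fibroblast-like cells, Ccl11 differed between the genotypes in opposite directions on the 2 days. The log2 difference (Ccr2-/- minus WT) was 3.99 on day 3 and -1.79 on day 5, and day 5 minus day 3 was 3.39 in WT and -2.38 in Ccr2-/- cells. These rest on 14 to 36 cells per pool with 52.3% to 77.7% of the reads in 1 cell, and the levels without the top cell were 20.5, 127, 421 and 57.5 CPM. The difference between days was not tested.

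In cluster 9, the C1qa- and Folr2-led Mo-Mac-like cells, Ccl24 was higher in Ccr2-/- on day 3 by 0.53 on the log2 scale, and its log2 difference on day 5 was -1.86. The difference between days was not tested.

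Barcodes left out of the pools also carried the members. The 529 barcodes with several hashtags and at most 20% mitochondrial reads stood at 985 CPM of Ccl11, 122 CPM of Ccl24 and 2.41 CPM of Ccr3, above the 0.0716 CPM that a count of 0 allows. The 712 barcodes with few hashtag reads stood at 828 CPM of Ccl11, 3.12 CPM of Ccl24 and 0.374 CPM of Ccr3, where a count of 0 allows 0.0935 CPM, and this Ccr3 value came from 12 reads. Whether these barcodes belonged to any pool was not tested.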

How the results depend on the processing

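Ccl11 in fibroblast-like cells kept its direction in all settings and passed the threshold under DESeq2 (log2 1.65), with no filter on low counts (1.67) and without the top cell of each pool (1.74), and it ran from 1.21 to 2.03 when 1 pool was left out. With 1 pool left out, the day term was dropped too, since no degree of freedom would remain, so those fits changed both. Genes called in these cells numbered 0 in the reported fit, 1559 under DESeq2, 349 with no filter, 3 in cells of at most 100000 reads, 3 without the top cells, 6 in cluster 11, 1 in cluster 20, and 0 to 158 with 1 pool left out (158 without WT day 3). Ccl24 in Mo-Mac-like cells lost its call at a hashtag ratio of 10 (1.23), in cells of at most 100000 reads (2.11) and without the top cells (1.22), turned to -0.64 in cluster 9, and ran from 0.58 to 1.89 with 1 pool left out. Genes called there numbered 147, 744 under DESeq2, 1371 with no filter, 3 at a hashtag ratio of 10, 1 in cells of at most 100000 reads, 1 without the top cells, 10 in cluster 7, 15 in cluster 9, and 0 to 460 with 1 pool left out (460 without WT day 3). In eosinophil-like cells the 1 call became 0 under DESeq2, 3 with no filter and 0 to 339 with 1 pool left out (339 without WT day 3), and Ccr3 ran from 0.10 to 1.70. The day-5 log2 ratio of Ccr3 turned to -0.026 as a mean of single-cell CPM. The causes were not tested. A naming limit of 25% for all clusters left no eosinophil-like cluster and gave no value. The settings without the top cells, by cluster and thinned to 3000 reads were chosen after seeing the data. No paired analysis was possible because each genotype and day was 1 pool and the labels give no replicate numbers, and the day term of the fit already sets the genotypes against each other within days. Ccr3 rested on 39 to 296 reads per pool in eosinophil-like cells.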
